A study of Gallus gallus with 6 samples.

Results

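The 10 genes described here, the hypoxia factors HIF1A and EPAS1, the oxygen sensor EGLN3, the growth factor VEGFA, the glycolytic regulator PFKFB3 and the glycolytic enzymes HK1, HK2, PGK1, ENO1 and LDHA, were selected by symbol. The count table, which lists 17262 genes, has a row for 9 of them, and all 9 passed the filter on low counts that left 12391 genes for the test. No row used here carries the symbol PGK1, and PGK1 was not analysed here. The RNA came from lens explants of chick embryos at embryonic day 14 (Gallus gallus), from which the fiber cell mass had been removed in an ex vivo model of cataract surgery. What remains is the lens capsule with its equatorial epithelium and resident immune cells. The explants were collected either directly after wounding (time 0, 3 libraries) or at 1 h post wounding (3 libraries), and each library was a pool of 6 explants. The sample labels give a culture protocol for both time points, and the methods of the study were followed here. All lenses were wounded, and by the methods of the study the 1 h explants were also cut, flattened and cultured for 1 h in medium with serum. The time after wounding and the culture therefore cannot be told apart. The methods state no oxygen level for this culture.

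Hypoxia inducible factors are pairs of an oxygen-sensitive α subunit (such as HIF1A or EPAS1) and the partner ARNT. Prolyl hydroxylases of the EGLN family mark the α subunits for destruction while oxygen is present, so that the factors are mainly controlled as proteins, which were not measured here. The factors are known to switch on VEGFA and many genes of glucose uptake and glycolysis. The lens has no blood vessels and lives at low oxygen, and it is known to draw much of its ATP from glycolysis, which splits glucose into pyruvate and lactate.

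The libraries held between 13733581 and 17673955 counted reads. A count of 3, taken as the floor of detection, corresponded to between 0.175 and 0.221 CPM (normalized counts on edgeR's TMM scale, relative to library size), and this floor covers counting error only. By the quasi-likelihood test of edgeR, with p-values adjusted over all genes by the Benjamini-Hochberg method, 31.8% of the genes tested differed between 1 h and time 0 at an adjusted p under 0.05. Of the genes tested, 19.8% were higher and 12.0% lower at 1 h. Of the genes called, 62.2% were higher. This share was 35.9% with upper-quartile normalization, which moved the median over all genes from -0.01 to -0.14 (log2), and 52.2% with scaling by library totals. Crystallins and other lens fiber markers were abundant in sum in all libraries. They took 164744 to 181725 CPM in sum at time 0 and 135543 to 141456 CPM at 1 h, and 13 of 16 tested were lower at 1 h. Single markers ranged at time 0 from 5.19 CPM on average for DNASE2B to 79603 CPM for CRYAA, which was not called. In bulk RNA such as this, fewer cells of a type and less RNA per cell cannot be told apart. Of 10 tested genes listed here as lens epithelium markers, 4 were higher (PAX6, SIX3, PROX1 and SOX2) and 2 lower (GJA1 and SOX1) at 1 h. The immune cell markers summed to at most 8.60 CPM in any library. Mesenchyme markers summed to between 321 and 384 CPM, and none of the 7 tested was called. Hemoglobin RNA stood out in 1 h replicate 1, with 309 counts of HBA1 against 0 and 3 in the other 1 h libraries. The time 0 libraries held 29, 44 and 40 counts of HBA1, which was not called.

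HK2, PFKFB3, VEGFA and EPAS1 rose within 1 h of wounding, and none of the other 5 genes tested passed the threshold. HK2, an inducible hexokinase, rose 4.87-fold and PFKFB3, which makes the activator of the pathway's committed step, rose 2.94-fold. VEGFA rose 1.51-fold and EPAS1 1.58-fold. The calls of HK2, PFKFB3 and VEGFA were kept in all 14 alternatives and that of EPAS1 in 5 of 14, being lost when any single library was left out. The most abundant of the genes, ENO1, LDHA and HIF1A, had fitted fold changes between 0.982 and 1.11. Thus 4 of 9 genes were higher, or 3 of 9 with the call of EPAS1 set aside, against 19.8% of all genes tested. Of the 9, 0 were lower, against 12.0%. At an unadjusted p under 0.05, which 5301 of the 12391 genes passed in either direction, HK1 was also lower. DESeq2's Wald test called HK1 lower as well. Across the 9 genes the median log2 fold change was 0.14, beside -0.01 over all genes. The genes were chosen with earlier results of these data known, so these shares and medians only describe them.

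**Figure D1:**
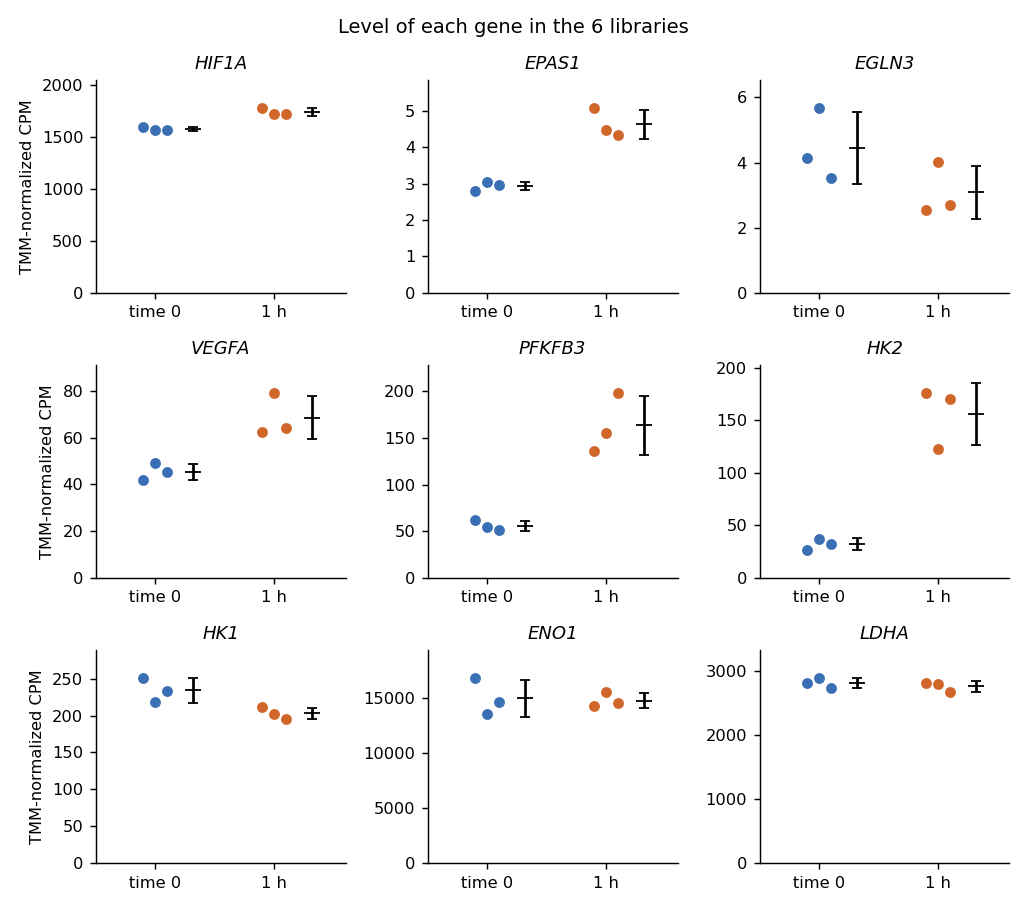
TMM-normalized CPM of the 9 genes with a row, in the 3 libraries of time 0 (blue) and of 1 h (orange), each panel starting at 0. Points are libraries, and the black bar gives the mean ± SD of 3 libraries. The libraries of the time points do not overlap for HK2, PFKFB3, VEGFA, EPAS1, HIF1A and HK1, with HK1 the only gene lower at 1 h among these. The same lack of overlap holds for 46.7% of all genes tested.

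The levels of the 9 genes spanned more than 3 orders of magnitude when expressed per kilobase of gene length (RPKM, computed from the counts). ENO1, the enolase of most tissues, was the most abundant at 5958 ± 677 RPKM at time 0 (SD, n = 3 libraries) and held rank 7 among all genes tested. LDHA, which turns pyruvate into lactate, followed at 1534 ± 42.4 RPKM and rank 32. HIF1A came next, at 233.7 ± 2.31 RPKM and rank 245, above every hexokinase. At time 0 the order continued with HK1 at 51.8, PFKFB3 at 23.4, VEGFA at 14.99, HK2 at 6.23, EGLN3 at 4.03 and EPAS1 at 1.11 RPKM. The libraries of HK2 (5.12 to 7.28 RPKM) and EGLN3 (3.20 to 5.15 RPKM) overlapped at time 0, and those of the other neighbours did not. At 1 h PFKFB3 had passed HK1, with 68.8 ± 13.4 against 44.9 ± 1.75 RPKM, and its rank moved from 2707 to 876. HK2 moved from rank 7132 to 2226 and stood at 30.4 ± 5.75 RPKM, with libraries overlapping those of VEGFA at 1 h.

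**Figure D2:**
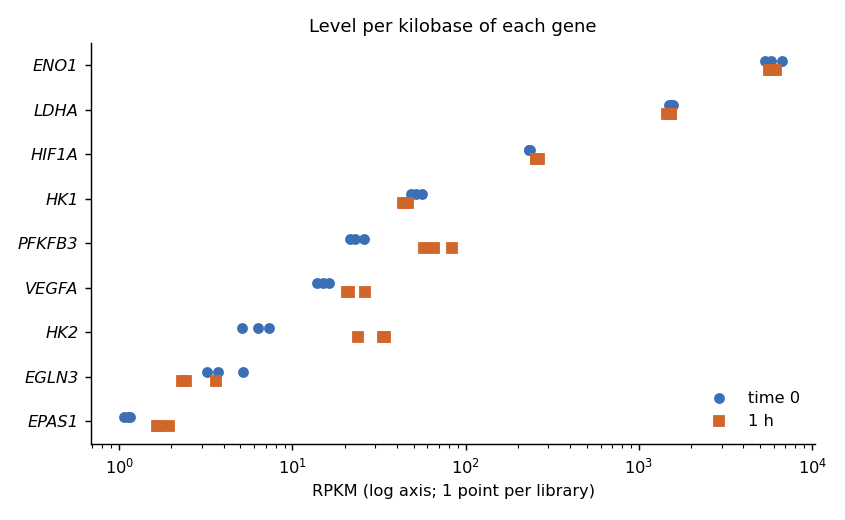
RPKM of the 9 genes on a log axis, 1 point per library, time 0 as blue circles and 1 h as orange squares, ordered by the mean over all libraries. ENO1 has 5958 RPKM on average at time 0 and EPAS1 lies between 1.07 and 1.94 RPKM.

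HIF1A (ENSGALG00000011870, chromosome 5 from 54161509 to 54192262 on the minus strand; coordinates here and below are those of the authors' table, whose genome build is not given in the sources used here) was read 21560, 24258 and 23796 times in replicates 1, 2 and 3 of time 0, and 27275, 26938 and 29350 times in those of 1 h. In CPM this was 1590, 1569 and 1559 at time 0 and 1780, 1720 and 1715 at 1 h. The 1 h libraries were all higher than the time 0 libraries, as was the case for 25.4% of all genes tested. The log2 fold change of 0.14 (standard error, SE, 0.07) did not pass the threshold, with an adjusted p of 0.119 by edgeR. Its 95% interval spanned fold changes from 0.999 to 1.22. With upper-quartile normalization the log2 fold change was 0.01, beside a median of -0.14 over all genes under that scaling.

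EPAS1 (ENSGALG00000010005, chromosome 3 from 26671415 to 26746226), the α subunit also named HIF2A and known from endothelium, was covered by few reads. The time 0 libraries held 38, 47 and 45 counts of it and the 1 h libraries 78, 70 and 74, or 2.93 ± 0.12 and 4.63 ± 0.41 CPM (SD, n = 3 libraries each). All 1 h libraries lay above all time 0 libraries, as in 25.4% of all genes tested. By edgeR, EPAS1 was 0.66 higher on the log2 scale, with an SE of 0.20 and an adjusted p of 0.0273. The call was lost when any of the 6 libraries was left out, with adjusted p between 0.0519 and 0.0815 in the same test, and with DESeq2's Wald test (adjusted p = 0.0858). Even at 1 h EPAS1 stayed far below HIF1A, with a ratio of RPKM of 0.00477 at time 0 and 0.00680 at 1 h. The log2 ratio moved by 0.51, and the exact two-sided permutation test over libraries gave p = 0.1, the smallest that 3 against 3 libraries allow. Of the 12 endothelial markers listed, KDR alone passed the filter, and it rose 2.90-fold, from 75, 120 and 130 reads at time 0 to 287, 292 and 445 reads at 1 h (adjusted p = 6.60e-05 by edgeR). Of the other 11, 6 had a row, and together they had 6 to 14 counts per library at time 0 and 14 to 23 at 1 h. The part of endothelial RNA in the EPAS1 value was not tested.

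EGLN3 (ENSGALG00000010001, chromosome 5 from 35917400 to 35941789), the prolyl hydroxylase PHD3 and itself a HIF target in mammals, was seen in 56, 88 and 54 reads of the time 0 libraries and in 39, 63 and 46 reads of the 1 h libraries. The time points overlapped, since 1 h replicate 2 (4.02 CPM) lay above time 0 replicate 3 (3.54 CPM). The log2 fold change of -0.53 (SE 0.26) did not pass the threshold (adjusted p = 0.142 by edgeR). Its interval ran from -1.10 to 0.04. The related sensor EGLN1 (PHD2), which in mammals is the main brake on HIF1A, rose from 123.5 ± 4.28 to 162.3 ± 10.9 CPM, a 1.31-fold change (adjusted p = 0.00162 by edgeR). Per kilobase EGLN3 made up 11.5% ± 2.78 of the RPKM of EGLN1 and EGLN3 at time 0 and 6.46% ± 2.04 at 1 h. The log2 ratio of EGLN3 to EGLN1 was 0.92 lower at 1 h on average (p = 0.1 in the exact two-sided permutation test, the smallest it can give). The time points were separated only narrowly, with time 0 replicate 3 at -3.34 and 1 h replicate 2 at -3.37.

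**Figure D3:**
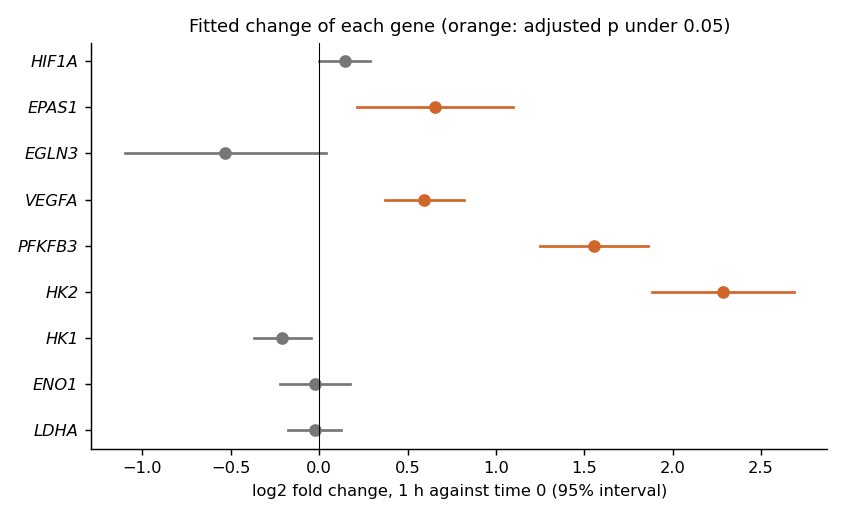
Fitted log2 fold change of the 9 genes, 1 h against time 0, with its 95% interval from edgeR's quasi-likelihood test. The genes called at an adjusted p under 0.05 are in orange, and HK2 at 2.28 and PFKFB3 at 1.56 lie farthest from 0.

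Among the 12 other tested genes of HIF subunits, oxygen sensors and the machinery that degrades HIF, 4 rose, 2 fell and 6 did not pass the threshold, beside 19.8% higher and 12.0% lower among all genes tested. The partner subunit ARNT (86.2 ± 2.90 CPM at time 0, fold change 1.02 with an interval of 0.913 to 1.13) and the asparagine hydroxylase HIF1AN (fold change 1.03, interval 0.917 to 1.16) were not called. HIF3A, another α subunit named after its values were seen, went from 24.4 ± 1.82 to 18.6 ± 4.75 CPM without a call (adjusted p = 0.0860 by edgeR). Besides EGLN1, the ubiquitin ligases SIAH1 and SIAH2, which in mammals target EGLN proteins, rose 1.82-fold and 1.39-fold (adjusted p = 2.93e-05 and 0.0144 by edgeR). CITED2, which in mammals competes with HIF for its coactivators, rose 2.34-fold, from 10.4 ± 0.46 to 24.4 ± 9.67 CPM (adjusted p = 0.0204 by edgeR). Its 1 h replicate 1 had 211 counts against 512 and 457 in the others. ELOC and RBX1, subunits of the ligase complex that acts with VHL, fell by 0.30 and 0.28 on the log2 scale (adjusted p = 0.00723 and 0.0456 by edgeR). The calls of SIAH1, ELOC and EGLN1 held when each library was left out. That of CITED2 was lost without time 0 replicate 1, 2 or 3 or without 1 h replicate 3 (adjusted p between 0.0625 and 0.0800 by edgeR). SIAH2 lost its call without time 0 replicate 2 or 3 or 1 h replicate 3 (0.0556 to 0.0843), and RBX1 without any single library except time 0 replicate 3 (0.0556 to 0.162). EGLN2 and VHL were not analysed here.

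VEGFA (ENSGALG00000010290, chromosome 3 from 30775054 to 30796571 on the minus strand), the growth factor of blood vessels and a classical HIF target, was counted 569, 758 and 688 times at time 0 and 954, 1241 and 1098 times at 1 h. In CPM this was 42.0, 49.0 and 45.1 at time 0 and 62.3, 79.2 and 64.1 at 1 h. All 1 h libraries were above all time 0 libraries, as in 25.4% of all genes tested, and 1 h replicate 2 was the highest. VEGFA was 0.59 higher on the log2 scale (SE 0.10, adjusted p = 0.000929 by edgeR), and this value ranged from 0.47 to 0.65 as single libraries were left out. Of the 5 other VEGF ligands and receptors tested, KDR rose, FLT4 fell and 3 were not called. Among all genes tested 19.8% were higher and 12.0% lower. KDR, the main signaling receptor of VEGFA, rose from 7.27 ± 1.55 to 21.1 ± 4.22 CPM, with the values given above. FLT4, a receptor of VEGFC, fell by 0.76 on the log2 scale, from 20.7 ± 2.13 to 12.2 ± 2.68 CPM (adjusted p = 0.00340 by edgeR). FLT1, the other VEGFA receptor, had at most 4 counts in any library.

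Of 18 other known HIF targets outside glycolysis tested besides VEGFA, 4 rose, 2 fell and 12 were not called. These shares were near those of all genes tested, 19.8% higher and 12.0% lower, and their median log2 fold change was -0.04. ANGPTL4, a secreted inhibitor of lipoprotein lipase, rose 10.4-fold, from 41.2 ± 3.77 to 427.7 ± 65.6 CPM (adjusted p = 2.96e-09 by edgeR). RORA, a nuclear receptor, rose 1.96-fold and INSIG2, a regulator of sterol synthesis, 1.25-fold (adjusted p = 0.00472 and 0.0148 by edgeR). INSIG2 lost its call without time 0 replicate 3, 1 h replicate 1 or 1 h replicate 3 (adjusted p between 0.0536 and 0.0902 by edgeR). HMOX1, heme oxygenase, named after its values were seen because it completes the genes that rose, also rose, with 5, 7 and 6 reads in the time 0 libraries and 35, 30 and 29 in the 1 h libraries (adjusted p = 0.000707 by edgeR). DDIT4, an inhibitor of mTORC1 and a target of HIF1A in mammals, fell by 0.80 on the log2 scale, from 137.2 ± 3.99 to 78.7 ± 19.1 CPM (adjusted p = 0.00552 by edgeR). BNIP3L, a receptor of mitophagy, fell by 0.23 (adjusted p = 0.0252 by edgeR) and lost its call without time 0 replicate 1, 1 h replicate 2 or 1 h replicate 3 (0.0539 to 0.0746). BNIP3 changed by -0.19 and NDRG1 by 0.21 on the log2 scale, without a call. ADM was not analysed here.

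PFKFB3 (ENSGALG00000040369, chromosome 1 from 4138801 to 4175957) makes fructose 2,6-bisphosphate, the strongest activator of phosphofructokinase. Its reads numbered 837, 839 and 777 at time 0 and 2085, 2438 and 3398 at 1 h. In CPM this was 61.7, 54.3 and 50.9 at time 0 and 136.1, 155.7 and 198.5 at 1 h. Every 1 h library was far above every time 0 library, while 25.4% of all genes tested had all 1 h libraries above. The 1 h libraries varied more, with SDs of 5.53 and 31.9 CPM. On the log2 scale the rise was 1.56 (SE 0.14, adjusted p = 2.08e-05 by edgeR), with the smallest p of the 9 genes, at rank 487 of all genes tested. PFKFB3 made up 93.5% ± 1.33 of the RPKM of the PFKFB genes with a row at time 0 and 97.4% ± 0.95 at 1 h, and their sum rose from 25.0 ± 2.13 to 70.6 ± 13.3 RPKM. PFKFB2, at 6.45 ± 1.25 and 6.92 ± 1.31 CPM, and PFKFB4, with 3 to 22 counts, were not called. PFKFB1 was not analysed here. The phosphofructokinases that respond to its product were not called either. PFKL had a fold change of 0.984 (interval 0.862 to 1.12), PFKP 0.990 (interval 0.893 to 1.10), and PFKM was covered by 55 to 88 counts.

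HK2 (ENSGALG00000034855, chromosome 22 from 4049954 to 4131577 on the minus strand) phosphorylates glucose as it enters the cell and is the hexokinase that muscle and growing cells induce. In the time 0 libraries 357, 578 and 494 reads were assigned to HK2, and in the 1 h libraries 2700, 1917 and 2915. In CPM this was 26.3, 37.4 and 32.4 at time 0 and 176.2, 122.4 and 170.3 at 1 h. The lowest 1 h library, replicate 2, was still above all time 0 libraries, as in 25.4% of all genes tested. The rise of 2.28 on the log2 scale (SE 0.17, adjusted p = 3.01e-05 by edgeR) was the largest among the 9 genes, with an interval of 3.69-fold to 6.44-fold. The listed span of HK2 overlaps 7 other gene models, and no source states that reads were counted by strand, so some reads may be shared. Of these 7, MXD1 (285, 329 and 330 counts at time 0; 417, 410 and 486 at 1 h) and ADD2 (19, 23 and 28; 39, 64 and 73) were called higher at 1 h, 4 were not called and 1 had too few reads for the test. All of them changed by fewer reads than HK2. These totals do not show how many reads were shared, and the part of such reads in the HK2 value was not tested.

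HK1 (ENSGALG00000004222, chromosome 6 from 11585402 to 11612168), the hexokinase of most resting tissues, was less abundant in the 1 h libraries. Reads of HK1 numbered 3407, 3370 and 3565 in the time 0 libraries, against 3234, 3164 and 3344 in the 1 h libraries. In CPM this was 251.2, 217.9 and 233.6 at time 0 and 211.1, 202.0 and 195.4 at 1 h. The 1 h libraries were all lower than the time 0 libraries, as in 21.4% of all genes tested. The log2 fold change of -0.21 (SE 0.07) stood at the threshold, with an adjusted p of 0.0511 by edgeR, and HK1 was called lower in 8 of 14 alternatives. Without time 0 replicate 2 the adjusted p was 0.0262, and without 1 h replicate 1 it was 0.0445, both by edgeR. With the other libraries left out in turn it lay between 0.103 and 0.170. Most of the lens fiber markers fell over the same hour, and their part in the HK1 value was not tested.

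The shares of HK1, HK2 and HKDC1 in the hexokinase RNA did not overlap between the time points, while that of HK3 did. Such shares are tied to each other, so a rise of HK2 by itself lowers those of the other genes. HK2 held 6.12%, 9.95% and 8.27% of the RPKM of the 4 genes HK1, HK2, HK3 and HKDC1 at time 0 and 35.1%, 28.98% and 35.5% at 1 h. The share of HK1 was 66.8% ± 1.01 at time 0 and 49.5% ± 4.33 at 1 h, and that of HKDC1, a related gene, 23.6% ± 2.47 and 15.7% ± 1.02 (SD, n = 3 libraries each). The sum of these 4 genes changed less, from 77.7 ± 5.43 to 91.2 ± 8.07 RPKM, and the libraries of the time points overlapped. The log2 ratio of HK2 to HK1, which does not depend on the scaling of the libraries, was -3.07 ± 0.36 at time 0 and -0.58 ± 0.29 at 1 h. The difference of 2.49 ranged from 2.30 to 2.66 as single libraries were left out (p = 0.1 in the exact two-sided permutation test, the smallest it can give). HK2 was higher and HK1 lower in every 1 h library, so this p was fixed by those values and adds no support. HKDC1 and HK3 were not called by themselves.

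**Figure D4:**
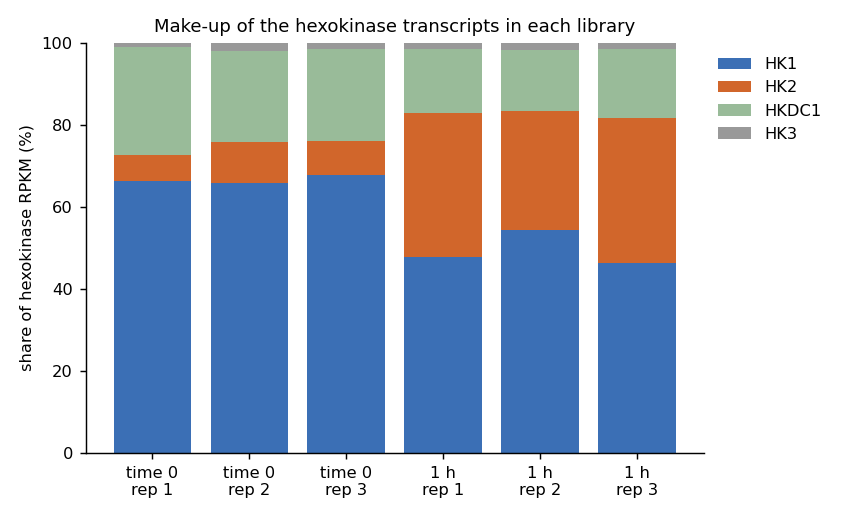
Share of HK1, HK2, HK3 and HKDC1 in their summed RPKM of each library, in percent. HK2 (orange) takes 6.12% to 9.95% at time 0 and 28.98% to 35.5% at 1 h, and HK1 (blue) remains the largest share in every library.

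ENO1 (ENSGALG00000002377, chromosome 21 from 3220612 to 3233063 on the minus strand) makes phosphoenolpyruvate, and the same protein is τ-crystallin in the lens of some other vertebrates. Its read counts were 229001, 209336 and 223402 for time 0 and 218552, 243481 and 249286 for 1 h, between 1.39% and 1.67% of all reads of a library. The levels overlapped, at 15021 ± 1706 and 14792 ± 670 CPM. The fold change was 0.985 with an interval of 0.859 to 1.13 (adjusted p = 0.876 by edgeR). Without time 0 replicate 1, the highest library in CPM, the log2 fold change turned from -0.02 to 0.07, still without a call (adjusted p = 0.576 by edgeR). The neural enolase ENO2 made up less than 0.1% of the enolase RPKM in every library.

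LDHA (ENSGALG00000006300, chromosome 5 from 12754029 to 12780561) was counted 38019, 44727 and 41770 times at time 0, and 43137, 43893 and 45596 times at 1 h. The span of LDHA overlaps TSG101 and UEVLD, which were not called. In CPM the libraries of LDHA overlapped, at 2811 ± 77.8 and 2761 ± 84.2. The fold change was 0.982 with an interval of 0.884 to 1.09 (adjusted p = 0.805 by edgeR). LDHB, the other subunit of the tetramer and ε-crystallin in some birds and crocodiles, was less abundant and went from 242.2 ± 36.6 to 222.1 ± 7.41 CPM without a call. LDHA made up 89.7% ± 1.52 of the LDH RPKM at time 0 and 90.3% ± 0.57 at 1 h. The log2 ratio of LDHA to LDHB differed by 0.09 (p = 0.6 in the exact two-sided permutation test) and by -0.03 without time 0 replicate 1.

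The other enzymes of glycolysis mostly did not pass the threshold. Of these 13 enzymes tested, none rose, 12 were not called and GAPDH fell, beside 19.8% higher and 12.0% lower among all genes tested. The median log2 fold change of the 13 was -0.02. GAPDH, the reference gene of the qRT-PCR in the study, went from 8345 ± 990 to 6504 ± 99.3 CPM, which is -0.36 on the log2 scale (SE 0.09, adjusted p = 0.00983 by edgeR). Its call was kept in all 14 alternatives, with adjusted p of at most 0.0346. With upper-quartile normalization 6 of all 17 enzymes tested were called, in place of 2, while calls over all 12391 genes went from 3938 to 5301. PKM, which makes pyruvate, had a fold change of 1.01 (interval 0.894 to 1.13). SLC2A1, the glucose transporter GLUT1, was abundant at 2168 ± 183 CPM at time 0 and was not called (fold change 1.04, interval 0.921 to 1.17). SLC2A3 was not analysed here.

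Of 17 other regulators and transporters of glycolysis tested, 4 rose, none fell and 13 were not called, beside 19.8% higher and 12.0% lower among all genes tested. PDK4, a kinase that switches off pyruvate dehydrogenase, rose 7.08-fold, from 3.46 ± 0.64 to 24.4 ± 0.24 CPM (adjusted p = 3.17e-08 by edgeR). PDP1, the phosphatase that switches the same enzyme on, rose 6.97-fold, from 27.5 ± 2.33 to 191.4 ± 44.7 CPM (adjusted p = 1.79e-05 by edgeR). These genes have opposing known actions, and the enzyme's subunits PDHA1 and PDHB were not called. PDK1, PDK2 and PDK3 were not called either, and PDK4 made up 7.995% ± 0.098 of the RPKM of the 4 kinases at 1 h, after 1.11% ± 0.15 at time 0. SLC16A3, the lactate exporter MCT4, rose 1.84-fold, from 116.5 ± 7.95 to 214.5 ± 30.5 CPM (adjusted p = 4.93e-05 by edgeR). Its share of the RPKM of SLC16A1, SLC16A3 and SLC16A7 went from 11.4% ± 1.07 to 20.9% ± 2.58. The sum of these transporters was 312.9 ± 9.46 and 312.0 ± 6.99 RPKM. SLC16A1, named after its values were seen, went from 276.4 ± 11.3 to 245.6 ± 4.70 RPKM without a call (adjusted p = 0.0781 by edgeR). TXNIP, an inhibitor of glucose uptake, named after its values were seen, was called higher (adjusted p = 0.0439 by edgeR) with 61, 49 and 60 counts at time 0 and 61, 117 and 155 at 1 h. It lost the call without any single library except 1 h replicate 1 (adjusted p between 0.0716 and 0.192 by edgeR).

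**Figure D5:**
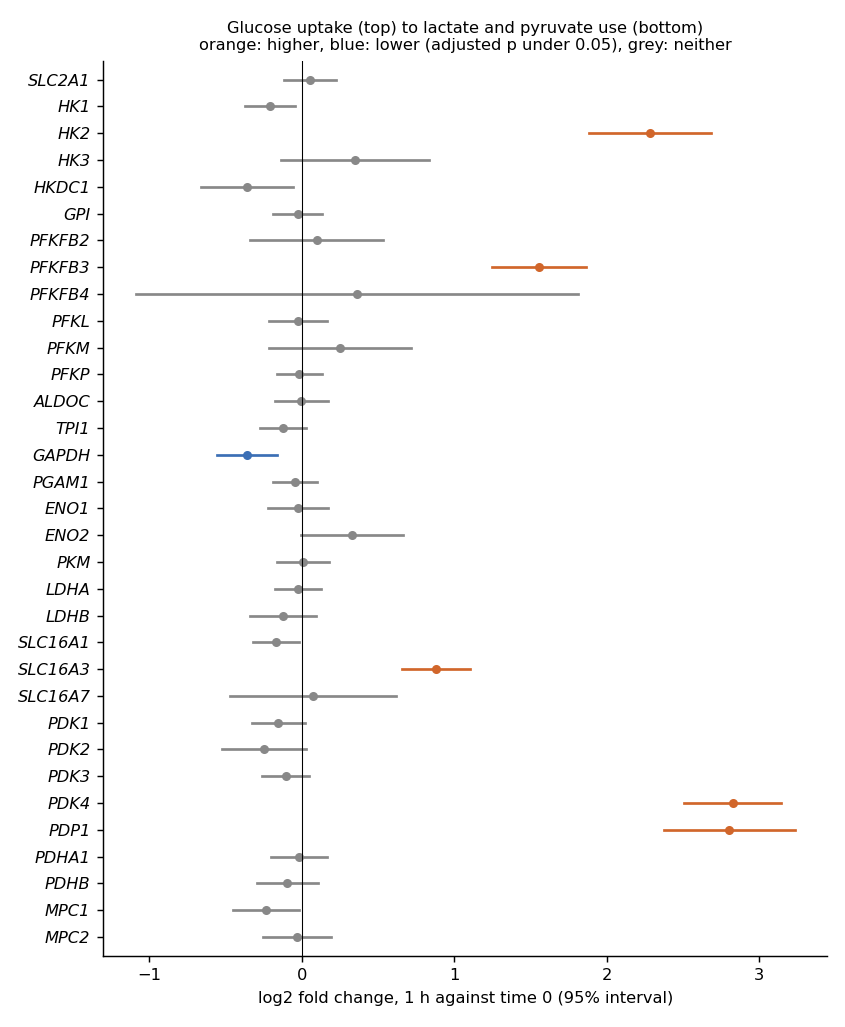
Fitted log2 fold change with its 95% interval for genes along the route from glucose uptake (top) to lactate export and the pyruvate dehydrogenase step (bottom), 1 h against time 0. HK2, PFKFB3, SLC16A3, PDK4 and PDP1 are higher (orange), GAPDH is lower (blue), and the others (grey) did not pass an adjusted p of 0.05.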

How the data were processed

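The authors deposited 1 table of 17262 genes that holds raw read counts per gene for 3 libraries of time 0 and 3 of 1 h, gene lengths and coordinates. The submitters' processing notes name HISAT2 2.0.5, featureCounts 1.5.0-p3, StringTie 1.3.3b and DESeq2 1.20.0. The genome build is not given in the sources used here. The 14 columns of normalized values, means and FPKM and the columns of the authors' fold changes and p-values were not used. Gene length is another quantity as deposited by the authors, in bases.

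In edgeR 4.0.16 (R 4.3.3), filterByExpr kept 12391 genes, calcNormFactors gave TMM factors, and robust glmQLFit with glmQLFTest compared the time points. P-values were adjusted by the Benjamini-Hochberg method over these genes, at a threshold of 0.05. Intervals are 95% intervals from the quasi-likelihood F statistic. CPM and RPKM were computed from counts, TMM factors and listed gene lengths. A gene with few reads has a wide interval. DESeq2 1.42.0 was an alternative, as were other scalings and filters, a replicate block and leaving out each library. The steps were tested on simulated counts. There edgeR recovered 62.7% of the genes changed 1.5-fold, 85.1% of those changed 2-fold and 95.5% of those changed 4-fold. Replicates of a time point differed by more than sampling noise (a chi-square of 8.02 to 15.1 for each degree of freedom). The labels call them biological replicates.

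The members and lists were chosen with earlier results of these data known. Named are all members, a fixed set of pathway genes, and in each pathway list the up to 3 largest rises and falls among called genes with a mean of at least 5 CPM, and the 3 genes most like the member with the smallest p. No sequence is printed, since none was used here.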

Additional observations from a re-analysis of the deposited data

How the results depend on the processing

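VEGFA, PFKFB3 and HK2 were called higher in all 14 alternatives (other scalings, filters and dispersions, DESeq2's Wald test, the replicate block and each library left out), and 13 of the 19 other pathway genes called were as well. EPAS1 was called in 5 of 14, HK1 was called lower in 8 of 14, and HIF1A, EGLN3, LDHA and ENO1 were called in none. With HK1, the number of the 9 genes called lower went from 0 to 1 with RLE normalization, upper-quartile normalization, library totals, no filter, a minimum mean of 1 CPM and DESeq2, and ranged from 0 to 1 when each library was left out. With a minimum absolute log2 fold change of 1, calls fell from 3938 to 896 over all genes and from 4 to 2 among the 9. Upper-quartile normalization gave 3400 genes lower in place of 1488, 6 glycolysis enzymes called in place of 2, and 9 regulators and transporters in place of 5. Of the glycolysis enzymes, 5 were called with library totals, 4 with DESeq2 and 2 to 4 when each library was left out. Calls among HIF subunits and sensors ranged from 3 to 6 in place of 7 when each library was left out. Calls over all genes then ranged from 3078 to 3728 in place of 3938. The difference between 1 h and time 0 in the log2 ratio of LDHA to LDHB, 0.09 with all libraries, ranged from -0.026 (without time 0 replicate 1) to 0.21 over the libraries left out. The log2 fold change of ENO1 ranged from -0.094 to 0.068, with the latter also without time 0 replicate 1. The causes of these shifts were not tested. No pairing of the samples by replicate number was seen. Deviations of same-numbered libraries correlated at -0.08, 0.01 and -0.04, and no time 0 library correlated best with its own number. With 3 libraries per time point, such values cannot exclude a pairing. With the replicate block 3730 genes were called in place of 3938, and EPAS1 had an adjusted p of 0.0521 in the edgeR test. EPAS1 and EGLN3 were the least covered of the 9 genes, with 38 to 88 counts per library.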

Other observations

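Over the 6 libraries, the genes whose log2 CPM ran most closely with PFKFB3 were ODC1, KPNA4 and LCORL, among 7265 genes with a symbol and a mean of at least 10 CPM. Their Pearson correlations were between 0.997 and 0.999, and since the libraries fall into 2 time points, such values largely restate that all of them were higher at 1 h. ODC1, the rate-limiting enzyme of polyamine synthesis, went from 31.7 ± 2.08 to 59.8 ± 6.15 CPM. KPNA4, a nuclear import receptor, went from 152.0 ± 7.16 to 219.7 ± 11.3 CPM.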
